A study of Mus musculus with 12 samples.

Results

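Teratomas grown from mouse ES cells that overexpressed WT Dnmt3L were compared with those grown from cells carrying the empty vector (ET), over all genes, in 6 of the 12 libraries of the series. The members were taken by their titles and treatment labels, 3 libraries of WT and 3 of ET. All of these cells were R1 mouse ES cells kept in serum and LIF, transduced with a lentiviral vector of the pEZ-LV235 backbone (CAG promoter) and selected with puromycin as a pool, so the controls carry vector and selection too. Per teratoma, 5000000 cells were placed under the skin of male immunodeficient NOD mice deficient in Prkdc, aged 8 weeks. The growths were collected at day 21, and 1 library was made from each. The labels give embryonic stem cell as the cell type, while the RNA is that of whole teratomas, in which host vessels and blood are mixed with the derivatives of the injected cells. The remaining 6 libraries, of the mutants K238R and K412R, entered only the shared estimate of the spread between teratomas.

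Dnmt3L is a catalytically inactive relative of the de novo DNA methyltransferases. It binds Dnmt3a and Dnmt3b, stimulates them, and is needed for methylation in germ cells. A teratoma is a disordered growth in which pluripotent cells form tissues of the 3 germ layers beside residual undifferentiated and dividing cells. Cell types mature in it at different speeds, so its RNA mixes early embryonic programmes with those of formed tissues. In such bulk RNA, fewer cells of a type and less RNA per cell cannot be told apart.

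Dnmt3L acts with enzymes that methylate the C of CpG. Promoters of 4 genes named in the results below are shown, with each CpG in capitals. These 4 were chosen by hand and not by a rule. They cover 250 bases before to 50 after the start, from RefSeq on GRCm38.p6, and were matched by symbol to files made on GRCm39. Stra8 and Cer1 had among the largest differences downward, Cnmd passed the adjusted threshold as lower, and Casq1 had one of the largest differences upward.
Stra8: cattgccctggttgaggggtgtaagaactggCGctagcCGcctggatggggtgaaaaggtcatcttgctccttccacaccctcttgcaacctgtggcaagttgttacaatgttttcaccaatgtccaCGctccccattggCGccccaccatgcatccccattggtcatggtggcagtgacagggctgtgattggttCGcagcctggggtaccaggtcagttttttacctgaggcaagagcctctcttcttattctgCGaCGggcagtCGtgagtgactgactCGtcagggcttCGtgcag
Cer1: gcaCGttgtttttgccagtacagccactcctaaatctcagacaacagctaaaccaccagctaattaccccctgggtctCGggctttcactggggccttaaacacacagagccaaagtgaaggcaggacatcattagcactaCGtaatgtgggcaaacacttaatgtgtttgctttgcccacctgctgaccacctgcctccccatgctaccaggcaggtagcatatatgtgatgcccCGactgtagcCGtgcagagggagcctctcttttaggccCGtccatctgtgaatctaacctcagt
Cnmd: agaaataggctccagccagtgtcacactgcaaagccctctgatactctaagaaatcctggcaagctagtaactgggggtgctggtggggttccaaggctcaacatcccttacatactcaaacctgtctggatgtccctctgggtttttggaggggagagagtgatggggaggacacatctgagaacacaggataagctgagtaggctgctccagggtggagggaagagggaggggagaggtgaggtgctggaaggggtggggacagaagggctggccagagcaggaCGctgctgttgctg
Casq1: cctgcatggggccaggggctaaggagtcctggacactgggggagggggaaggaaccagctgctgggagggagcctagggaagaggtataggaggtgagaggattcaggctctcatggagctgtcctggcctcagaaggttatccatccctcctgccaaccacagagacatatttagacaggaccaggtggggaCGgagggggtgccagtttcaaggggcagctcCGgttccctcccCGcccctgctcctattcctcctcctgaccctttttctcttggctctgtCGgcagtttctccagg
These windows held 10, 6, 1 and 4 CpGs, or 0.43, 0.308, 0.047 and 0.148 times the number their C and G content would give. The letters CG, which read the same on both strands, occurred at least once in 94.2% of the 27018 promoters of the RefSeq table, with a median of 7 per window. A comparison of CpG content between the genes higher and lower in WT was void, because only 70.8% and 73.2% of them had a promoter in the table, under the 80% required. Methylation was not measured in these teratomas.

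The libraries held between 16957677 and 17987009 counts, 1.06 times apart. Gm26917, a single long noncoding RNA, took 8.66% to 11.2% of the counts and the mitochondrial chromosome 6.23% to 8.33%. Pairs of replicates differed by 11.3 to 57.5 times the variance of counting noise, most between ET replicates 2 and 3 and least between WT replicates 2 and 3. Over the lists of genes described below, ET replicate 2 often lay near WT, and WT replicate 1 near ET. Both are therefore named beside many of the results. Levels are CPM, the counts of a gene per 1000000 counts on TMM-scaled library sizes, in the order of replicates 1, 2 and 3. Log2 fold changes, given in brackets after the levels, are WT minus ET, with the standard error (SE) of edgeR's quasi-likelihood fit and p-values adjusted over the 18405 genes tested.

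Dnmt3l stood at 2.19, 0.643 and 7.73 CPM in ET and at 164, 206 and 213 in WT. Every WT library lay above every ET library, and the log2 fold change was 5.78 (SE 0.61, adjusted p = 0.0192 in edgeR's quasi-likelihood test). Without ET replicate 2, which had the lowest control level, it was 5.30, and without WT replicate 1 it was 5.89. Leaving out libraries in turn ended its call in 6 of 12 cases. The count files give 1 value per gene, so transcripts of the vector and of the gene's own locus are not separated.

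At an adjusted p under 0.05, 9 genes differed (0.0489% of those tested), Dnmt3l upward and 8 downward. Cnmd encodes chondromodulin, a cartilage protein that inhibits vessel growth, and stood at 2.98, 3.1 and 2.54 CPM in ET and at 0.667, 0.907 and 0.536 in WT (-2.02, SE 0.26, adjusted p = 0.0293). Dnah11, a heavy chain of the dynein that moves cilia, fell from 38.4, 29.8 and 33.7 to 19.7, 20.01 and 18.8 CPM (-0.80, SE 0.11, adjusted p = 0.0293). Pald1, which encodes the phosphatase-domain protein paladin, had the narrowest spread, with 63, 60.1 and 60.8 CPM in ET and 42.1, 40.3 and 38.4 in WT (-0.61, SE 0.08, adjusted p = 0.0293). In these 3 genes no libraries overlapped between groups, and ET replicate 2 and WT replicate 1 lay with their own groups.
Lgi3, a secreted leucine-rich repeat protein of the brain, was at 90.02, 83.7 and 74.5 CPM in ET and at 46.1, 51 and 43.2 in WT (-0.82, SE 0.12, adjusted p = 0.0353). Ccdc3, a secreted coiled-coil protein, was at 116, 72.5 and 96 CPM in ET and at 48.4, 46.2 and 41.2 in WT (-1.07, SE 0.14, adjusted p = 0.0293), with ET replicate 2 the lowest control. Sh2d4a, an adaptor with an SH2 domain, was at 7.42, 5.73 and 6.6 CPM in ET and at 3.23, 3.17 and 2.92 in WT (-1.08, SE 0.16, adjusted p = 0.0447). The uncharacterised D630039A03Rik was likewise lower, at 15.4, 8.94 and 11.5 CPM in ET and at 4.73, 4.37 and 3.99 in WT (-1.45, SE 0.20, adjusted p = 0.035). Gm15128, a predicted gene, had 65 counts over the 3 ET libraries and 0 in each WT library, so it was at least 21.6-fold lower against a floor of 3 counts over the WT group. All 8 fell, none overlapped between groups, and all passed again both without ET replicate 2 and without WT replicate 1. Those fits passed 5784 and 1309 genes, since each leaves out a library that lay near the other group. Passing again in them is therefore no separate support. Leaving out any of the other 10 libraries ended all 8 calls, with the highest adjusted p at 0.268, and in a fit of ET and WT alone the lowest adjusted p of any gene was 0.256. The plot of these genes by library shows the gap between groups in each.

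**Figure D1:**
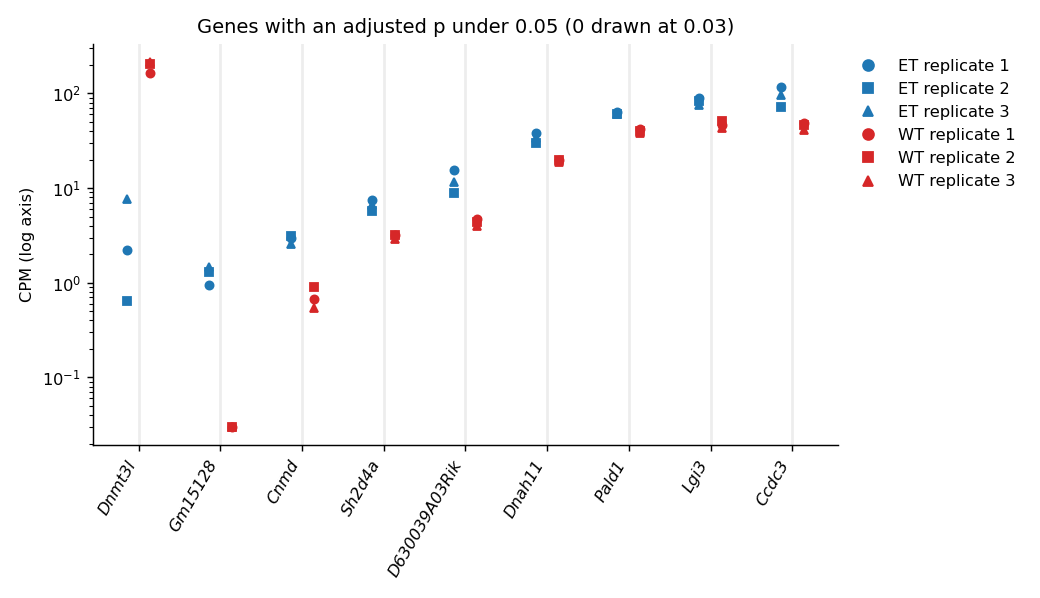
Level in CPM (log axis) of the 9 genes with an adjusted p under 0.05, in ET (blue) and WT (red), 1 point per teratoma and replicates by shape. Dnmt3l lies higher in all 3 WT libraries (164 to 213 CPM) and the other 8 lie lower in all 3, with Gm15128 at 0, drawn at 0.03.

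The wider picture rests on looser rules. At an unadjusted p under 0.05, 5364 genes differed (29.1%). By at least a 2-fold difference with that p, the criterion of the study, 600 genes were higher in WT (3.26% of those tested) and 508 lower (2.76%). DESeq2, with all 12 libraries, called 882 genes higher (4.95% of the 17807 with an adjusted p) and 989 lower (5.55%) at an adjusted p under 0.05. The 3 WT libraries lay above the 3 ET libraries in 1886 genes (10.2%) and below in 1931 (10.5%). Against these shares the members of each list are counted below, and the median log2 fold change of all genes tested was -0.01. The 2-fold criterion controls no error rate over genes, and "higher" and "lower" are used for it in place of "rose" and "fell". Of the 1108 genes, 433 met it in the same direction without ET replicate 3, 605 without WT replicate 3, 664 without WT replicate 2 and 718 without ET replicate 1, against 1014 without ET replicate 2 and 979 without WT replicate 1.

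**Figure D2:**
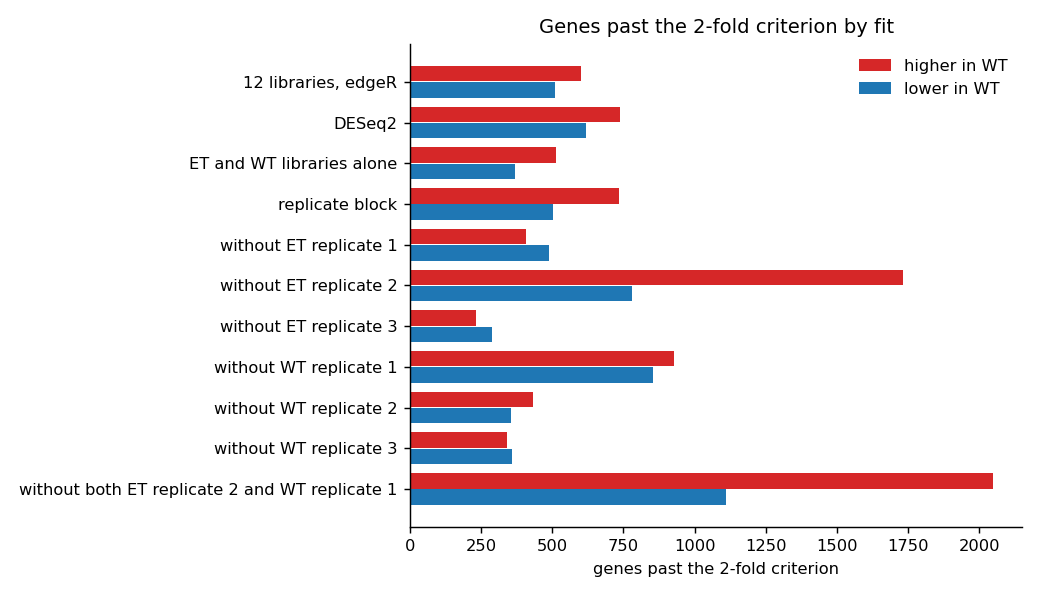
Genes higher (red) and lower (blue) in WT than in ET by the 2-fold criterion, in the fit of 12 libraries and its alternatives. The 600 and 508 genes became 1734 and 781 without ET replicate 2, 928 and 854 without WT replicate 1, and 231 and 287 without ET replicate 3.

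Of the genes whose groups were apart and averaged 5 CPM or more in one of them, 174 were higher and 105 lower by the 2-fold criterion. Of the 10 with the largest difference upward, 5 have known places in striated muscle or fat. Atp1b4, a muscle protein of the inner nuclear membrane, stood at 4.1, 3.74 and 0 CPM in ET and at 5.84, 46.4 and 10.5 in WT (3, SE 1.22). Casq1, the calcium-binding protein of the sarcoplasmic reticulum, was at 8.65, 9.88 and 9.87 CPM in ET and at 11.3, 53.4 and 57.4 in WT (2.10, SE 0.69). Sypl2, of the junction between surface and calcium-store membranes, was at 2.53, 1.05 and 1.47 CPM in ET and at 2.78, 16.1 and 11.3 in WT (2.57, SE 0.80). In these, WT replicates 2 and 3 carried most of the difference, and WT replicate 1 lay just above ET.
Tmod1, which caps the thin filaments of striated muscle, was at 5.11, 5.32 and 2.09 CPM in ET and at 5.89, 27.2 and 16.3 in WT (1.98, SE 0.64). Fabp4, a fatty acid carrier of fat cells and endothelium, was at 3.93, 6.78 and 3.33 CPM in ET and at 19, 30.4 and 7.03 in WT (2.01, SE 0.67), with WT replicate 3 closest to ET. Mobp, a structural protein of central myelin, was at 4.72, 2.4 and 3.27 CPM in ET and at 6.95, 18.6 and 16.6 in WT (2.02, SE 0.64). The others were Dnmt3l, Tceal7, Hoxc8 and 2610028H24Rik. Tceal7 was at 4.44, 4.15 and 1.64 CPM in ET and at 4.67, 24.6 and 16.8 in WT. Hoxc8, a trunk Hox gene, was at 2.19, 1.99 and 0.621 CPM in ET and at 4.62, 6.35 and 7.63 in WT. The uncharacterised 2610028H24Rik was at 0.562, 7.01 and 1.19 CPM in ET and at 10.9, 11.8 and 12.1 in WT. In it, ET replicate 2 lay nearer to WT than to the other controls, and its log2 fold change went from 2 to 3.73 without it. None of these 9 genes beside Dnmt3l passed the adjusted threshold in edgeR, with adjusted p between 0.1 and 0.142. With DESeq2 none of the 5 muscle and fat genes passed, with adjusted p of 0.226 for Atp1b4, 0.0529 for Casq1, 0.0517 for Sypl2, 0.0572 for Tmod1 and 0.0628 for Fabp4, while Mobp, Tceal7, Hoxc8 and 2610028H24Rik did.

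The 10 with the largest difference downward were of germ cells, early embryonic signalling and pluripotency, or known by a number. Stra8, the gatekeeper of meiotic entry, was at 9.38, 1.75 and 12.2 CPM in ET and at 1.17, 0.0567 and 0.0596 in WT (-4.14, SE 0.91). Mov10l1, an RNA helicase of piRNA production, was at 5.17, 1.87 and 9.48 CPM in ET and at 1.22, 0.454 and 0.655 in WT (-2.81, SE 0.61). In both, ET replicate 2 and WT replicate 1 lay close together, below the other controls and above the other WT libraries. Cer1, a secreted inhibitor of Nodal and BMP, was at 5.23, 9.18 and 8.24 CPM in ET and at 1.83, 0.907 and 0.298 in WT (-2.88, SE 0.45, adjusted p = 0.0537). Dkk1, an inhibitor of Wnt, was at 4.61, 9.76 and 10.04 CPM in ET and at 2.56, 1.36 and 1.07 in WT (-2.28, SE 0.42). Cer1 and Dkk1 did not follow that pattern, since ET replicate 2 was close to ET replicate 3. Sfrp5, another secreted Wnt inhibitor, was at 11.9, 2.46 and 11.6 CPM in ET and at 1.5, 1.7 and 1.85 in WT (-2.36, SE 0.51), with ET replicate 2 near WT.
Zscan10, a transcription factor of ES cells, was at 5.56, 5.38 and 12.4 CPM in ET and at 4.12, 0.397 and 0.238 in WT (-2.28, SE 0.74). Nanog, the pluripotency factor, was at 8.09, 9.99 and 18 CPM in ET and at 5.78, 0.964 and 0.715 in WT (-2.26, SE 0.62). In both of these genes, WT replicate 1 was at several times the level of WT replicates 2 and 3, and without it their log2 fold changes were -4.58 and -3.83. The others were 1700013H16Rik, Xlr3c and Gm32885. 1700013H16Rik was at 32, 2.92 and 43.3 CPM in ET and at 2.78, 0.283 and 0.715 in WT. Xlr3c, of an X-linked family, was at 8.43, 0.935 and 9.08 CPM in ET and at 0.89, 0.113 and 0.536 in WT. Gm32885 was at 7.7, 1.81 and 9.08 CPM in ET and at 1.11, 1.08 and 0.774 in WT. In all 3, ET replicate 2 lay nearer to WT than to the other controls. DESeq2 called 9 of these 10 genes, all but Zscan10 (adjusted p = 0.0626).

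The mesendoderm and organizer list holds genes of the primitive streak, the node and their derivatives, which lay out the body axis and its midline. Of 17 tested of a list of 20, 13 were lower by the 2-fold criterion and 0 higher. DESeq2 called 13 lower, and in 14 the WT libraries lay below all ET libraries. The mean log2 CPM of the list relative to the ET mean was -0.13, 0.02 and 0.11 in ET and -0.86, -2.09 and -2.51 in WT, so the controls were close together and WT replicate 1 lay between them and the other WT libraries. The median log2 fold change was -1.87. Without ET replicate 2 it was -1.88 and without WT replicate 1 -2.83.
T, or brachyury, which marks the streak and notochord, stood at 34.2, 42 and 35.9 CPM in ET and at 20.5, 7.26 and 4.65 in WT (-1.79, SE 0.42). Eomes, a T-box factor of definitive endoderm and early mesoderm, was at 5.23, 8.3 and 6.66 CPM in ET and at 3.67, 2.21 and 1.67 in WT (-1.41, SE 0.32). Mixl1, a homeobox gene of the streak, was at 0.562, 1.17 and 1.07 CPM in ET and at 0.334, 0.0567 and 0 in WT (-2.75, SE 0.76). Noto, a homeobox gene of the node and notochord, was at 2.64, 2.16 and 3.1 CPM in ET and at 0.778, 0.0567 and 0 in WT (-3.19, SE 0.74). All 4 were lower in each WT library than in any control.
Shh, the signal of notochord and floor plate, was at 144, 56.8 and 166 CPM in ET and at 45.1, 25.7 and 16.4 in WT (-2.07, SE 0.44). Lefty1, an inhibitor of Nodal, was at 25.5, 29.2 and 35.7 CPM in ET and at 16.5, 2.78 and 1.61 in WT (-2.11, SE 0.61). Both were named after their values were seen. Foxa2, a forkhead factor of node, floor plate and endoderm that also stands in the liver list, was at 95.4, 61.4 and 90.2 CPM in ET and at 44.9, 24 and 15.7 in WT (-1.55, SE 0.31). Not all streak genes were lower. Tbx6, a gene of presomitic mesoderm, was at 0.843, 0.994 and 1.19 CPM in ET and at 0.945, 1.02 and 1.13 in WT (0.04, SE 0.29). Wnt3, a signal of the streak, was at 2.81, 4.79 and 2.09 CPM in ET and at 3.89, 3.74 and 2.62 in WT (0.08, SE 0.28). Both overlapped between groups and were chosen after their values were seen.

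**Figure D3:**
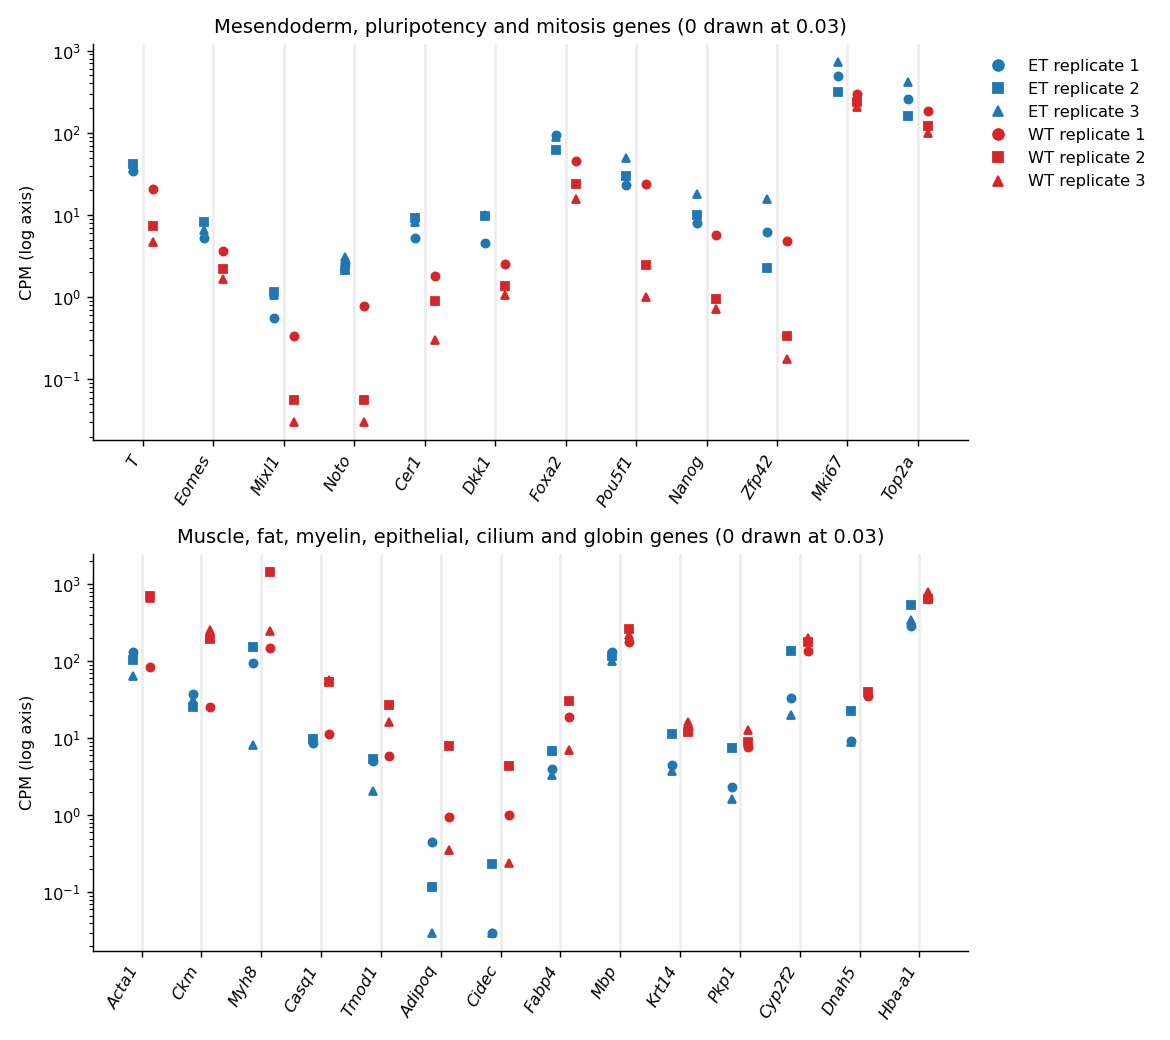
Level in CPM (log axis) of early embryonic and mitosis genes (top) and of genes of formed tissues (bottom) in ET (blue) and WT (red), 1 point per teratoma, replicates by shape and 0 drawn at 0.03. T, Eomes, Cer1 and Foxa2 are lower in every WT library than in any ET library, while Acta1 and Ckm are high in WT replicates 2 and 3 (652 to 706 and 194 to 255 CPM) and near the control level in WT replicate 1.

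Naive pluripotency genes differed in another way. Of 21 tested, 8 were lower by the 2-fold criterion and 0 higher, with a median log2 fold change of -1.75, and DESeq2 called 2 lower. The list stood at -0.20, -0.55 and 0.75 in ET and -0.27, -2.29 and -2.64 in WT, so WT replicate 1 was inside the range of the controls. Pou5f1 (Oct4) stood at 23.1, 30.04 and 49.8 CPM in ET and at 24.2, 2.5 and 1.01 in WT (-1.89, SE 0.80). Zfp42 (Rex1) was at 6.18, 2.28 and 15.6 CPM in ET and at 4.78, 0.34 and 0.179 in WT (-2.17, SE 0.95). Without WT replicate 1 their log2 fold changes were -4.28 and -4.91, and the median of the list was -3.55. Dppa2 and Dppa3, chromatin proteins of the inner cell mass and germ line, were at 2.08, 0.585 and 5.08 and 2.19, 0.76 and 4.57 CPM in ET, and at 1.11, 0 and 0 and 1.22, 0.17 and 0.119 in WT.

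Germ-line lists had ET replicate 2 and WT replicate 1 side by side. For primordial germ cells, 8 of 20 tested genes were lower by the 2-fold criterion and 0 higher, and the list stood at 0.13, -0.63 and 0.50 in ET and -0.46, -1.49 and -1.35 in WT. Dazl, an RNA-binding protein of germ cells, was at 24.9, 3.1 and 34.5 CPM in ET and at 3.89, 0.227 and 0.596 in WT (-3.71, SE 0.92). Of the defining markers, Prdm1 was at 8.15, 7.54 and 8.41 CPM in ET and at 7.34, 5.44 and 8.76 in WT. Nanos3 was at 1.85, 1.05 and 0.79 CPM in ET and at 1, 0.624 and 1.13 in WT, with overlapping groups. For meiosis 7 of 20 were lower and 1 higher, with a median of -0.85. Sycp1, of the synaptonemal complex, was at 4.5, 1.29 and 6.88 CPM in ET and at 1.06, 0.567 and 0.417 in WT (-2.62, SE 0.55). Mei4, needed for meiotic DNA breaks, was higher, at 0.787, 0.292 and 0.282 CPM in ET and at 1.45, 0.794 and 1.49 in WT (1.44, SE 0.49).

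Of 17 trophoblast genes tested, 10 met the 2-fold criterion as lower and 0 as higher, with a median of -1.87, and DESeq2 called 2. Scores were -0.02, -0.58 and 0.59 in ET and -0.57, -1.43 and -1.23 in WT, so ET replicate 2 lay with WT replicate 1. Levels were low. Tpbpa, of the spongiotrophoblast, was at 1.69, 0.292 and 1.52 CPM in ET and at 0.278, 0.17 and 0.417 in WT (-2, SE 0.78). Rhox6, an X-linked homeobox gene of placenta and germ cells, was at 2.19, 0.175 and 5.13 CPM in ET and at 0.612, 0.113 and 0.179 in WT (-3.02, SE 0.92). In both, ET replicate 2 was at the level of WT. Prl3d1, of giant cells, had counts in ET replicate 3 alone (0.733 CPM), and Gcm1, of the labyrinth, was at or under 0.169 CPM in every library. The list shares Eomes, Cdx2, Hand1 and Krt8 with other tissues.

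All 25 mitosis genes tested had negative log2 fold changes, 17 of them met the 2-fold criterion, and DESeq2 called all 25, although 7 were without overlap. The list stood at 0.02, -0.62 and 0.60 in ET and -0.53, -1.15 and -1.32 in WT, with ET replicate 2 just below WT replicate 1. Mki67, the proliferation antigen, was at 497, 311 and 728 CPM in ET and at 296, 235 and 206 in WT (-1.06, SE 0.27). Top2a, which untangles DNA before division, was at 260.5, 162 and 417 CPM in ET and at 187, 121 and 98.4 in WT (-1.05, SE 0.33). Cenpf, of the kinetochore, was at 162, 106 and 258 CPM in ET and at 89.5, 74 and 62.2 in WT (-1.22, SE 0.29). The summed level of the naive pluripotency list, whose cells divide, was 242 to 460 CPM in ET and 119.8 to 251 in WT, and the part of such cells in the mitosis counts was not tested.
For DNA replication, 6 of 24 genes met the 2-fold criterion as lower and 17 passed with DESeq2, and all 24 log2 fold changes were negative (median -0.91). Mcm2, of the replicative helicase, was at 94.8, 57.9 and 146 CPM in ET and at 68.4, 36.6 and 27.2 in WT (-1.17, SE 0.35). Ribosomal protein genes had smaller differences in the same direction. Of all 86 by symbol, a family chosen after values were seen, 85 had negative log2 fold changes, with a median of -0.38, and 28 passed with DESeq2. Among them only Rpl39l, a variant expressed in testis and ES cells, met the 2-fold criterion, at 2.58, 0.818 and 4.74 CPM in ET and at 1.28, 0.624 and 0.357 in WT (-1.83, SE 0.60).
The PRC2 and HDAC list, of histone-modifying enzymes and their partners, had a median of -0.47 with 0 of 18 genes past the 2-fold criterion, and DESeq2 called 4 lower. Ezh2, the methyltransferase of PRC2, was at 84.2, 47.5 and 115 CPM in ET and at 64.7, 38.8 and 30.2 in WT (-0.89, SE 0.33). DESeq2 did not call Ezh2 (adjusted p = 0.0546).

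The DNA methylation machinery is the set in which Dnmt3L works. Of 15 other genes tested, 1 met the 2-fold criterion, Uhrf1, the partner of Dnmt1 at replication, at 61.5, 48.6 and 95 CPM in ET and at 51, 29 and 20.3 in WT (-1.03, SE 0.31). Dnmt1, the maintenance enzyme, was at 184, 174 and 253 CPM in ET and at 173, 161 and 152 in WT (-0.33, SE 0.15). Dnmt3a stood at 201, 222 and 209 CPM in ET and at 197, 233 and 234 in WT (0.07, SE 0.10), and the groups overlapped. Dnmt3b was at 24.7, 28.2 and 68.7 CPM in ET and at 34.4, 6.8 and 4.53 in WT (-1.41, SE 0.64), and WT replicate 1 exceeded 2 of the 3 controls. Without that library its log2 fold change was -2.84.
Imprinted genes, whose marks are set in the germ line, had a median of 0.04 over 29 tested, and 1 met the criterion. It was H19, the maternally expressed noncoding RNA, at 275, 173 and 320 CPM in ET and at 96.9, 51 and 142 in WT (-1.41, SE 0.31). Igf2, its paternally expressed neighbour, was at 1349, 2082 and 959 CPM in ET and at 1373, 2931 and 1960 in WT (0.51, SE 0.29), with overlap. Mest, another paternally expressed gene, was at 1231, 1984 and 1068 CPM in ET and at 1818, 2658 and 2740 in WT (0.75, SE 0.27). It overlapped too, with ET replicate 2 above WT replicate 1, and its log2 fold change was 1.24 without both.

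**Figure D4:**
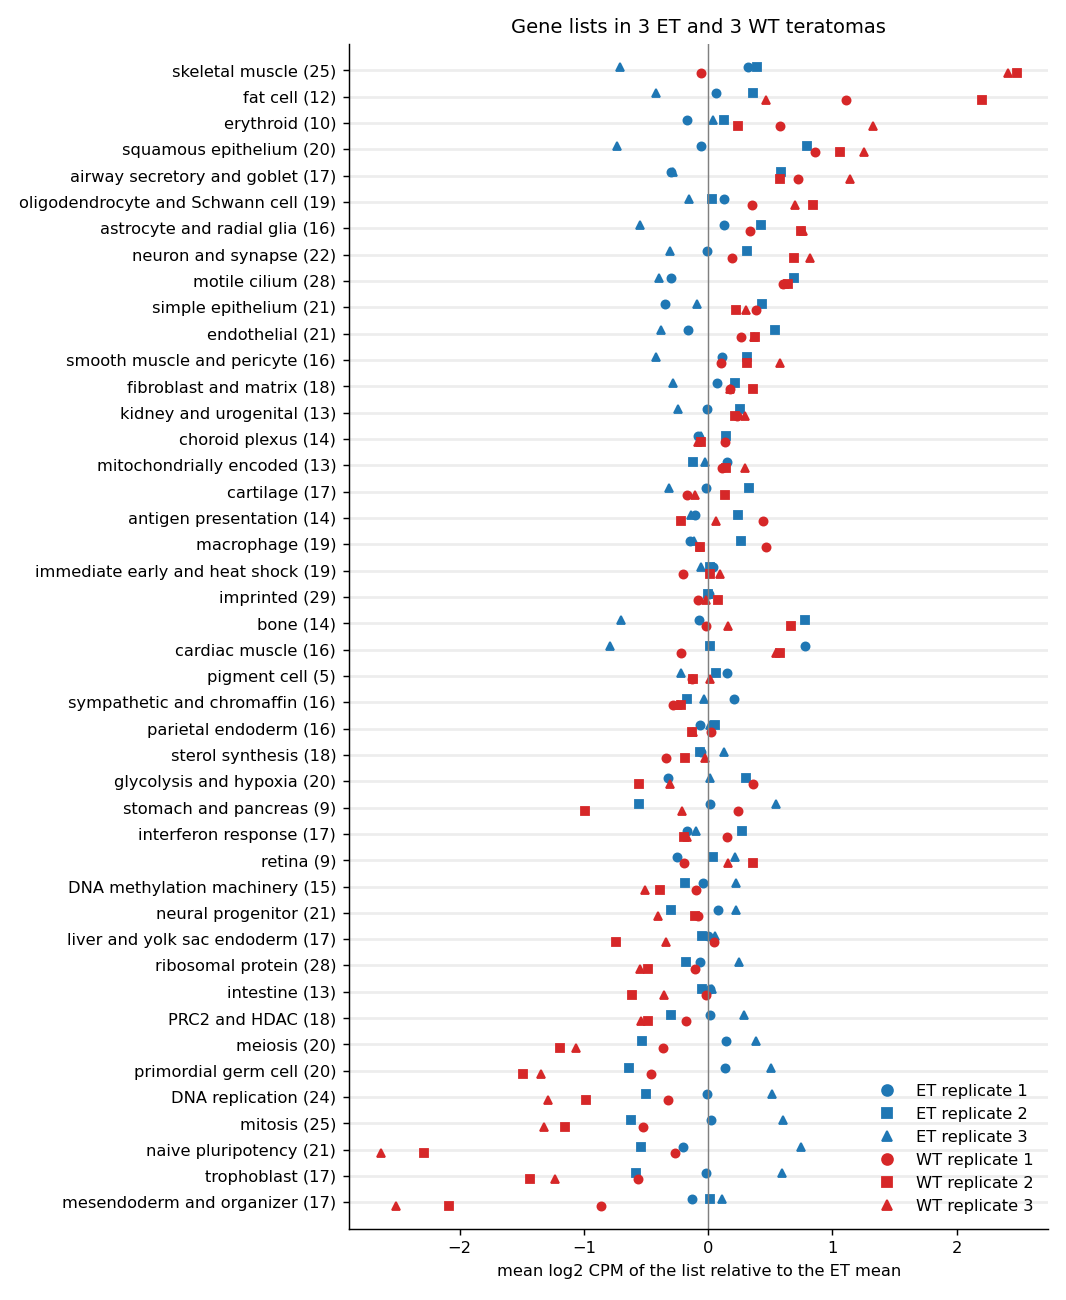
Mean log2 CPM of each gene list relative to the ET mean, 1 point per teratoma, for the 44 lists with at least 5 genes tested (number in brackets), ordered by the median log2 fold change. The early embryonic and dividing-cell lists lie at the bottom with WT replicates 2 and 3 lowest, and ET replicate 2 and WT replicate 1 lie near each other in many lists.

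Hox genes give the axial position of a cell along the trunk. Those of paralogue groups 1 to 5, expressed in hindbrain and neck, and those of groups 6 to 13 were taken as families by symbol after values were seen. All 14 tested of groups 1 to 5 had negative log2 fold changes, 10 met the 2-fold criterion as lower, and DESeq2 called 10. Yet none was without overlap, and in the genes named here ET replicate 2 lay at the level of WT. Hoxc4 was at 77, 6.78 and 47 CPM in ET and at 6.78, 5.56 and 8.04 in WT (-2.68, SE 0.64). Hoxc5 was at 28, 2.46 and 15.7 CPM in ET and at 2.5, 2.67 and 2.32 in WT (-2.62, SE 0.67). The family stood at 0.87, -1.28 and 0.41 in ET and at -1.18, -1.49 and -1.30 in WT, on the log2 scale relative to the ET mean. Here WT replicate 1 lay with its group, unlike in the pluripotency and muscle lists.
Of the 18 tested of groups 6 to 13, expressed further back, 1 was higher (Hoxc8, above) and 0 lower, with a median of -0.33. Isl1, a factor of peripheral neurons, was at 35.9, 7.89 and 52.1 CPM in ET and at 17.1, 10.2 and 5.78 in WT (-1.53, SE 0.63). Prph, a neuronal intermediate filament, was at 78.5, 17.3 and 48.4 CPM in ET and at 13.7, 18.6 and 18.8 in WT (-1.5, SE 0.44). Both were lowest in ET replicate 2 among the controls, at the level of WT. Their list, sympathetic and chromaffin, had 5 of 16 lower, 8 positive and 8 negative log2 fold changes and a median of -0.08, which was 0.26 without ET replicate 2 and 0.33 without both ET replicate 2 and WT replicate 1. Of its catecholamine enzymes, Th was at 10.5, 34.6 and 10.9 CPM in ET and at 29.4, 19.2 and 18.4 in WT. Dbh was at 2.92, 4.73 and 1.52 CPM in ET and at 2.67, 4.65 and 4.41 in WT, and both overlapped between groups.

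**Figure D5:**
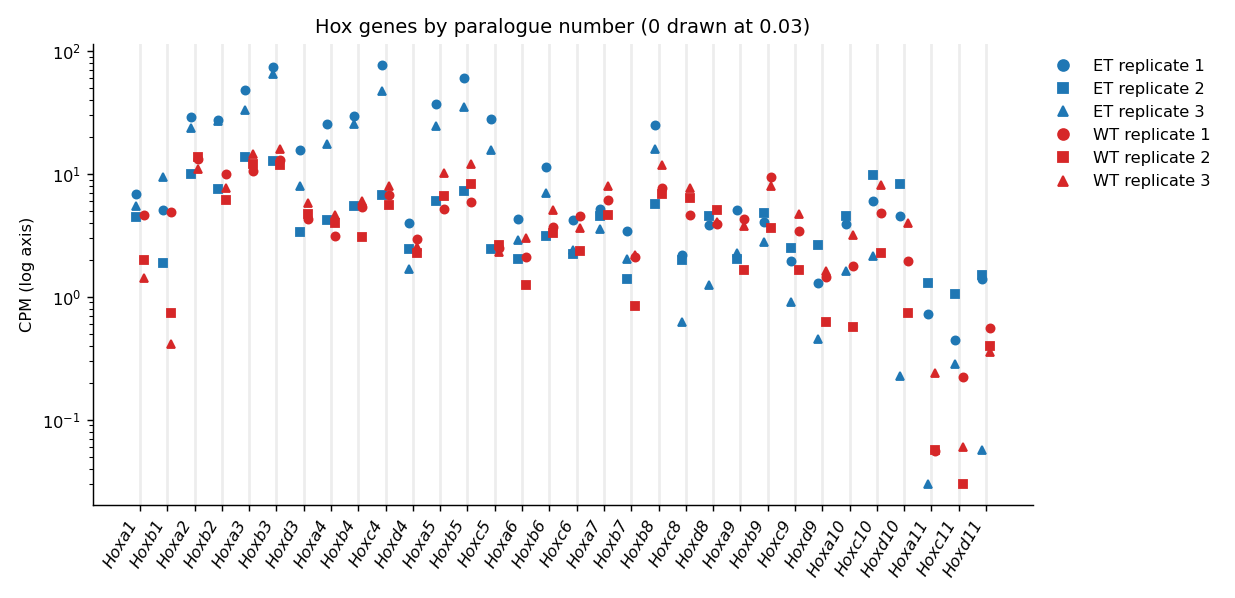
Level in CPM (log axis) of the 32 Hox genes tested, ordered by paralogue group, in ET (blue) and WT (red), 1 point per teratoma and 0 drawn at 0.03. In groups 3 to 5 ET replicates 1 and 3 lie above the rest in most genes, while ET replicate 2 lies with the WT libraries, as in Hoxc4 at 6.78 CPM against 77 and 47.

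Skeletal muscle had the largest median of the 44 lists with at least 5 genes tested, 2.10, with all 25 genes tested positive. Of these, 6 met the 2-fold criterion, DESeq2 called 0, and 1 was without overlap, Casq1. Per library, the list stood at 0.32, 0.39 and -0.71 in ET and -0.06, 2.48 and 2.42 in WT. WT replicate 1 was inside the range of the controls. Acta1, the actin of skeletal muscle, was at 133, 105 and 64.8 CPM in ET and at 84.8, 706 and 652 in WT (2.25, SE 1.10). Ckm, muscle creatine kinase, was at 37.8, 25.8 and 31.2 CPM in ET and at 25.5, 194 and 255 in WT (2.32, SE 1.20). Myog, the factor that starts muscle differentiation, was at 4.78, 5.03 and 0.733 CPM in ET and at 3.39, 17.9 and 14.9 in WT (1.78, SE 0.97).
The largest differences past the criterion were those of Myh8, Chrng and Myf6. Myh8, the perinatal myosin, was at 95.9, 154 and 8.29 CPM in ET and at 149, 1424 and 248 in WT (2.82, SE 1.26). Chrng, the fetal acetylcholine receptor subunit, was at 0.731, 0.994 and 0.226 CPM in ET and at 0.945, 8.73 and 3.63 in WT (2.76, SE 1.04). Myf6, a muscle regulator, was at 0.787, 0.643 and 0.451 CPM in ET and at 0.5, 4.42 and 3.69 in WT (2.18, SE 0.88). Without WT replicate 1 the median of the list was 2.57, and without ET replicate 2 2.14.

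The cardiac list had a median of -0.04, near that of all genes, with 1 of 16 higher and 2 lower. Smpx, shared with skeletal muscle, was higher, at 1.12, 1.34 and 0.846 CPM in ET and at 0.945, 5.1 and 5.9 in WT (1.84, SE 0.75). Tbx20, a T-box factor of heart that is also expressed in hindbrain neurons, was lower, at 32.4, 3.27 and 40.1 CPM in ET and at 5.78, 4.08 and 1.79 in WT (-2.69, SE 0.80), with ET replicate 2 at the WT level. Of its defining markers, Nppa and Myl7 were under 0.6 CPM in every library and not tested, while Myh6, the atrial-type myosin, was at 19.7, 10.3 and 6.54 CPM in ET and at 5.17, 16.2 and 13.5 in WT.

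Of 12 fat cell genes tested, 6 met the 2-fold criterion as higher and 0 as lower, DESeq2 called 4, and 5 were without overlap. Its scores were 0.06, 0.36 and -0.42 in ET and 1.11, 2.20 and 0.47 in WT. Adipoq, the fat cell hormone adiponectin, was at 0.45, 0.117 and 0 CPM in ET and at 0.945, 7.94 and 0.357 in WT (3.97, SE 1.40). Cidec, of the lipid droplet, was at 0, 0.234 and 0 CPM in ET and at 1, 4.31 and 0.238 in WT (4.48, SE 1.37). Cfd, or adipsin, was at 0.169, 0.877 and 0 CPM in ET and at 3.17, 6.86 and 0.119 in WT (3.27, SE 1.41). All 3 were highest in WT replicate 2, and WT replicate 3 lay at the level of the controls. Plin1, of the same droplets, was not tested and stood at 0.281, 0.117 and 0.0564 CPM in ET and at 0.5, 3.52 and 0.238 in WT. Levels this low rest on few counts.

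Connective tissue had few genes past the criterion. Bone had a median of -0.01, which was 0.56 without ET replicate 2 and 0.37 without both that library and WT replicate 1, and no gene past the criterion, with Ibsp, a protein of mineralising bone, at 21.6, 84.9 and 1.92 CPM in ET and at 22, 95.9 and 38 in WT, where ET replicate 2 and WT replicate 2 were alike. In cartilage, 2 of 17 were lower, Cnmd and Col2a1, the main cartilage collagen, at 160, 82.3 and 151 CPM in ET and at 86.3, 56.7 and 37.6 in WT (-1.12, SE 0.34). Acan, the cartilage proteoglycan, was at 5.67, 9.99 and 4.23 CPM in ET and at 5.5, 6.97 and 6.25 in WT (-0.09, SE 0.31). Without ET replicate 2 the median of the cartilage list went from 0.13 to 0.32. Smooth muscle and pericyte genes had a median of 0.31, or 0.65 without ET replicate 2, with 1 past the criterion, Myocd, the coactivator of smooth muscle genes, at 2.7, 1.52 and 1.92 CPM in ET and at 0.89, 0.68 and 1.43 in WT (-1.03, SE 0.35). Among 18 fibroblast genes, with a median of 0.30, 1 was higher, Dpt, or dermatopontin, at 5.79, 7.48 and 1.98 CPM in ET and at 9.06, 15.7 and 12.6 in WT (1.29, SE 0.52). DESeq2 called 1 higher and 1 lower, and 2 were without overlap upward and 2 downward. Dcn, a defining marker, was lower in each WT library, at 317, 215 and 246 CPM in ET and at 172, 193 and 166 in WT (-0.55, SE 0.18), short of 2-fold.

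Of 19 genes of oligodendrocytes and Schwann cells, 4 met the 2-fold criterion as higher and 0 as lower. DESeq2 called 8 higher, and in 11 all WT libraries exceeded all controls. The list stood at 0.12, 0.03 and -0.15 in ET and 0.35, 0.84 and 0.70 in WT, without overlap. Mbp, myelin basic protein, was at 131, 116 and 101 CPM in ET and at 177, 261 and 217 in WT (0.91, SE 0.26). The median log2 fold change was 0.61, 0.72 without ET replicate 2 and 0.77 without WT replicate 1.

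Of 22 neuron genes, 3 were higher by the 2-fold criterion, DESeq2 called 7 higher, and 0 were without overlap. Snap25, of synaptic vesicle release, was at 98.3, 153 and 70.3 CPM in ET and at 148, 211 and 245 in WT (0.91, SE 0.29). Slc32a1, the GABA transporter of vesicles, was at 12, 24.7 and 6.71 CPM in ET and at 19.3, 34.2 and 45.9 in WT (1.20, SE 0.51). Slc17a6, that for glutamate, was at 38.3, 77.3 and 32.7 CPM in ET and at 68, 103 and 141 in WT (1.07, SE 0.34). In each, ET replicate 2 was above WT replicate 1. The median of the list was 0.57, and 0.88 without ET replicate 2. Of 16 astrocyte genes 15 were positive, 0 met the 2-fold criterion and DESeq2 called 4 higher. The astrocyte median was 0.61, or 0.84 without ET replicate 2, and the scores overlapped, with ET replicate 2 above WT replicate 1. Gfap, the astrocyte filament, was at 264, 456 and 95.4 CPM in ET and at 474, 544 and 749.5 in WT (1.11, SE 0.59). DESeq2 did not call Gfap (adjusted p = 0.24). Aqp4, the water channel, was at 165, 240 and 77.1 CPM in ET and at 247, 331 and 359.5 in WT (0.96, SE 0.35).
Serotonin receptor genes, a family chosen after values were seen, included 6 of 11 higher by the 2-fold criterion, and DESeq2 called 2 higher. The family stood at -0.08, 0.70 and -0.62 in ET and at 0.42, 0.86 and 1.07 in WT, with ET replicate 2 above WT replicate 1. Its median was 1.07, and 1.52 without ET replicate 2. Htr7 was at 2.58, 3.86 and 1.35 CPM in ET and at 4.73, 7.82 and 9.29 in WT (1.49, SE 0.51). Htr2c was at 4.95, 10.9 and 1.92 CPM in ET and at 7.45, 15.7 and 18.4 in WT (1.23, SE 0.56). Htr3a, which encodes the ion channel subunit of the family, was lower, at 1.01, 1.05 and 1.58 CPM in ET and at 0.723, 0.227 and 0.298 in WT (-1.52, SE 0.51).
Neural progenitor genes had a median of -0.23 and 1 of 21 lower, Neurog1, a proneural factor, at 6.69, 0.351 and 6.83 CPM in ET and at 1.56, 0.34 and 0.119 in WT (-2.76, SE 1.01), with ET replicate 2 at the level of WT. Pax6, of progenitors in brain and eye, was at 17.8, 10.6 and 17.2 CPM in ET and at 17.5, 17.9 and 17.4 in WT (0.21, SE 0.23). Nes, or nestin, was at 334, 154 and 355 CPM in ET and at 179, 195 and 136 in WT (-0.72, SE 0.29). The choroid plexus list had genes of both directions, with 1 higher and 2 lower of 14. Folr1, the folate receptor, was at 7.87, 8.59 and 8.35 CPM in ET and at 5.06, 2.21 and 2.98 in WT (-1.27, SE 0.24), below every control in every WT library. Trpm3, an ion channel, was at 17.1, 29.8 and 12.5 CPM in ET and at 28.3, 43.5 and 50.2 in WT (1.04, SE 0.35). Of 9 retina genes tested 1 was higher, Rlbp1, of pigment and Müller cells, at 1.29, 2.1 and 1.47 CPM in ET and at 2.22, 4.76 and 3.52 in WT (1.11, SE 0.35), and no pigment cell gene met the criterion.

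Of 20 squamous genes, 5 met the criterion as higher, 0 as lower, and 11 were without overlap. The list stood at -0.06, 0.79 and -0.74 in ET and 0.86, 1.06 and 1.25 in WT, with ET replicate 2 near WT. Krt14, a basal keratin, was at 4.55, 11.5 and 3.78 CPM in ET and at 13.3, 12.2 and 16.3 in WT (1.08, SE 0.33). Its partner Krt5 was at 28.3, 48.5 and 14.4 CPM in ET and at 47.6, 53.9 and 66.2 in WT (0.88, SE 0.38). Pkp1, of desmosomes, was at 2.36, 7.48 and 1.64 CPM in ET and at 7.67, 8.85 and 12.8 in WT (1.35, SE 0.48). Calml3, a calmodulin-like protein of stratified epithelium, was at 0.618, 1.75 and 0.226 CPM in ET and at 2.67, 3.23 and 5.42 in WT (2.12, SE 0.61). The lineage factor Trp63 was at 8.6, 15.2 and 6.26 CPM in ET and at 11.2, 13.6 and 14.5 in WT (0.39, SE 0.28) and overlapped.
Among 17 airway and goblet genes, 5 were higher by the 2-fold criterion, and the scores of the list overlapped, with ET replicate 2 among WT. Cyp2f2, an enzyme of club cells, was at 33, 134 and 20.2 CPM in ET and at 135, 179.7 and 203 in WT (1.47, SE 0.65). Muc5b, a secreted mucin, was at 3.54, 7.25 and 2.37 CPM in ET and at 10.2, 7.09 and 21 in WT (1.54, SE 0.54). Tff3, a goblet cell peptide, was at 0.562, 0.585 and 0.169 CPM in ET and at 0.89, 2.04 and 1.31 in WT (1.68, SE 0.52). Scgb1a1, the defining secretoglobin of club cells, was at or near 0 in every library. Foxa1, a forkhead factor of such epithelia, was lower in each WT library, at 103, 96.3 and 86.6 CPM in ET and at 68, 69.1 and 57.8 in WT (-0.56, SE 0.17), short of 2-fold. Without ET replicate 2 the medians of the squamous and airway lists were 1.48 and 1.18, against 0.90 and 0.86 with it.
The simple epithelium list had a median of 0.33, or 0.53 without ET replicate 2, and Cdh1, Epcam and Krt8 overlapped between groups. Its 1 gene past the criterion was Cldn6, a claudin of embryonic epithelium, which was lower, at 7.36, 9.18 and 13.4 CPM in ET and at 6.62, 3.46 and 4.11 in WT (-1.07, SE 0.28). In families taken by symbol after values were seen, 6 of 25 keratins, 4 of 10 mucins and 5 of 28 cytochromes P450 were higher, and 0, 0 and 0 lower.

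Motile cilium genes had 24 of 28 positive log2 fold changes, and 3 met the 2-fold criterion. Dnah5, an outer arm dynein, was at 9.1, 22.4 and 8.97 CPM in ET and at 35, 39.6 and 39.4 in WT (1.5, SE 0.34). Dnaaf1, a factor for its assembly, was at 1.52, 7.42 and 2.31 CPM in ET and at 9.45, 10.5 and 12 in WT (1.5, SE 0.52). Dnah11, which works beside Dnah5 in the outer arm, fell, as given above. Foxj1, the factor that switches the programme on, was at 69.7, 94.7 and 53.8 CPM in ET and at 69, 73 and 64.3 in WT (-0.08, SE 0.17), with overlap. The list stood at -0.30, 0.69 and -0.40 in ET and 0.61, 0.65 and 0.62 in WT, so ET replicate 2 exceeded all 3 WT libraries. Without it the median of the list went from 0.55 to 1.04.

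Of 17 liver and yolk sac genes tested, 4 were lower and 0 higher, with 6 positive and 11 negative log2 fold changes and a median of -0.30. Vtn, the plasma protein vitronectin, was at 240, 106 and 209 CPM in ET and at 67.4, 70.02 and 52.9 in WT (-1.55, SE 0.24, adjusted p = 0.0537). Cubn, an endocytic receptor of yolk sac and kidney, was at 10.3, 5.73 and 20.9 CPM in ET and at 6.28, 3.91 and 5.36 in WT (-1.25, SE 0.37). The defining markers were nearly absent, with Alb and Apoa2 not tested, at or under 0.278 CPM, and Afp at 1.41, 0.994 and 1.02 CPM in ET and at 1.06, 0.283 and 1.43 in WT. Of the intestine list, 2 of 13 were lower, Cdx2, its master regulator, at 0.731, 0.994 and 0.621 CPM in ET and at 0.556, 0.0567 and 0 in WT (-1.87, SE 0.76). Olfm4, of crypt cells, was at 4.89, 2.75 and 4.79 CPM in ET and at 1.45, 1.76 and 2.03 in WT (-1.25, SE 0.28). The list had 6 positive and 7 negative log2 fold changes, a median of -0.45 and, without WT replicate 1, of -0.82, while its summed level was 65.8 to 113 CPM in ET and 104 to 129.6 in WT. In stomach and pancreas, 2 of 9 were lower, with 4 positive and 5 negative log2 fold changes and a median of -0.14, or -0.78 without WT replicate 1. Neurog3 was at 1.46, 0.292 and 2.54 CPM in ET and at 0.5, 0.113 and 0 in WT (-2.74, SE 0.89). Nkx6-1, a factor of pancreas that is also expressed in ventral neural tube, was at 44.2, 18.1 and 48.8 CPM in ET and at 19.6, 14.1 and 12.7 in WT (-1.26, SE 0.33). In both, ET replicate 2 lay below WT replicate 1. Scores of all 3 lists overlapped between groups. Pdx1, which defines the pancreas, had no count in any of the 6 libraries, and Ptf1a was at or under 0.169 CPM.

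Blood and vessel genes can be supplied by the host. Of 10 red cell genes tested, 3 were higher by the 2-fold criterion and 5 without overlap, and DESeq2 called 0. Hbb-bs, adult beta globin, was at 99.6, 178 and 162 CPM in ET and at 242, 228 and 318 in WT (0.84, SE 0.41). Hba-a1, alpha globin, was at 284, 544 and 342 CPM in ET and at 640.3, 645 and 788 in WT (0.82, SE 0.44). Alas2, of haem synthesis in red cells, was at 6.97, 8.59 and 6.38 CPM in ET and at 13, 14.2 and 18.6 in WT (1.06, SE 0.46). Hba-a1 and Hba-a2, like Hbb-bs and Hbb-bt, are near-identical copies, so reads could be shared between them. The endothelial list had a median of 0.31, or 0.68 without ET replicate 2, with 1 of 21 higher, Cldn5, of tight junctions, at 3.77, 9.12 and 1.92 CPM in ET and at 6.95, 13.9 and 12.9 in WT (1.19, SE 0.46). Pecam1, of endothelial junctions, was at 36.6, 62.4 and 37.4 CPM in ET and at 58, 50.8 and 51.5 in WT. Cdh5, or VE-cadherin, was at 72.9, 116 and 60.4 CPM in ET and at 92.9, 104 and 92.2 in WT, and both were highest in ET replicate 2. Kdr, the remaining defining marker, was at 26.3, 34.5 and 25.9 CPM in ET and at 32.6, 50.2 and 45.7 in WT (0.57, SE 0.17). It overlapped too, but was highest in WT replicate 2. DESeq2 called 1 gene of the list higher, Kdr, and 1 lower.
No macrophage, interferon or antigen presentation gene met the 2-fold criterion, out of 19, 17 and 14 tested, with medians of 0.06, -0.15 and 0.08. Csf1r, the macrophage receptor, was at 25.7, 36.5 and 21 CPM in ET and at 35, 31.4 and 27.1 in WT (0.17, SE 0.20). Of lymphocyte genes 1 was tested, and Cd3e had no count in any of the 6 libraries. Among neutrophil and mast cell genes 3 were tested and 1 was higher, Hdc, the enzyme that makes histamine, at 3.03, 15.1 and 2.43 CPM in ET and at 17.5, 17.1 and 16.6 in WT (1.32, SE 0.52), with ET replicate 2 near WT. The neutrophil markers S100a8, at or under 0.397 CPM, and Ly6g, with no count, were nearly absent.

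No gene of glycolysis and hypoxia, immediate early response, sterol synthesis or the mitochondrial chromosome met the 2-fold criterion, with medians of -0.11, 0.04, -0.09 and 0.18. The glycolysis list stood at -0.32, 0.31 and 0.02 in ET and at 0.36, -0.56 and -0.30 in WT. Without WT replicate 1 its median was -0.36. Slc2a1, a defining marker, was at 135, 206 and 219 CPM in ET and at 179.5, 73.4 and 76.8 in WT (-0.76, SE 0.32). Its log2 fold change was -1.31 without WT replicate 1. Vegfa, the vessel growth factor induced by hypoxia, was highest in WT replicate 1 and ET replicate 2, at 122, 256 and 147 CPM in ET and at 329, 139.9 and 171 in WT. Parietal endoderm had a median of -0.08 with no gene past the criterion. In kidney and urogenital tissue 1 of 13 was higher, Six2, of nephron progenitors and facial mesenchyme, at 0.393, 0.585 and 0.282 CPM in ET and at 1, 1.47 and 1.79 in WT (1.74, SE 0.37), while Umod, which defines the kidney tubule, had no count.

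By chromosome, as given in RefSeq's GRCm38.p6 table, medians were under 0.2 in size except on Y. Chromosome 1 had a median of 0.10 over 1074 genes and chromosome 15 a median of -0.12 over 723. Over the genes of chromosome 1, ET replicate 2 alone of the controls was above the ET mean, by a median of 0.13 on the log2 scale, against 0.07, 0.11 and 0.15 in WT. On chromosome 15 it was at -0.09, and the WT libraries were at -0.09, -0.08 and -0.09. The X chromosome had a median of -0.02, with 47 of 665 genes lower (7.07%) and 18 higher (2.71%). The lower ones include the Xlr family, germ-line and lymphoid genes in several near-identical copies. Chosen as a family after values were seen, 6 of 10 were lower, and DESeq2 called 3. The family stood at 0.66, -1.65 and 0.996 in ET and at -0.82, -2.20 and -1.56 in WT. ET replicate 2 thus lay below WT replicates 1 and 3. Xlr5b was at 0.843, 0 and 2.76 CPM in ET and at 0, 0 and 0.119 in WT and Xlr3c as given above, and reads could be shared between copies.
The Y chromosome had 12 genes tested, with a median of -0.93 and 4 lower by the 2-fold criterion. Relative to the ET mean, the median over these genes was 0.22, -0.65 and 0.40 in ET. In WT it was -0.39, -1.315 and -0.88, so ET replicate 2 lay below WT replicate 1. Among the 4 lower genes, Gm21677 had 49 counts in ET replicate 3 and 0 in every other library. Eif2s3y, a translation factor needed for spermatogonia, was at 107, 78.4 and 92.4 CPM in ET and at 54.7, 38.7 and 34.4 in WT (-1.12, SE 0.18, adjusted p = 0.0541). Kdm5d, a histone demethylase, was at 17.8, 8.59 and 20.8 CPM in ET and at 7.9, 4.37 and 7.63 in WT (-1.25, SE 0.30), without overlap in both. Zfy1, a testis zinc-finger gene, was at 3.54, 0.351 and 5.87 CPM in ET and at 0.5, 0.0567 and 0.119 in WT (-3.80, SE 0.91), with ET replicate 2 below WT replicate 1. Uty, another demethylase, was at 37.3, 22.3 and 39.9 CPM in ET and at 23.6, 17.2 and 18.4 in WT (-0.75, SE 0.24). Ddx3y, an RNA helicase, was at 47.9, 36.8 and 58 CPM in ET and at 38.4, 34.1 and 33.4 in WT (-0.43, SE 0.16), with overlap in both. Eif2s3y, Kdm5d, Uty and Ddx3y were named after their values were seen, and R1 cells and hosts are both male. Xist, the RNA that coats an inactive X, was under 2 CPM in each library, and its antisense partner Tsix was at 9.72, 7.54 and 8.8 CPM in ET and at 4.67, 4.25 and 4.41 in WT (-0.97, SE 0.19). Xist and Tsix were named outside the rule for naming genes. Whether the counting used strand is not stated, so reads of the pair may not be told apart. By RefSeq gene type, 86 of 1790 long noncoding RNAs were higher (4.8%) and 74 lower (4.13%), against 490 (3.13%) and 401 (2.56%) of 15679 protein-coding genes.

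How far these lists rest on ET replicate 2 and WT replicate 1 differed. Without both, 1035 of the 1108 genes met the 2-fold criterion again in the same direction, among 2050 higher and 1110 lower. The medians of the lower lists were then -3.06 for streak and node, -3.72 for naive pluripotency, -2.42 for trophoblast, -1.58 for mitosis and -1.43 for DNA replication. Those of the higher lists were 2.59 for skeletal muscle, 1.53 for fat, 1.55 for squamous epithelium, 1 for neurons, 1.04 for motile cilia and 0.88 for myelin. All 11 were larger in size than with all libraries. Both libraries are named because they lay near the other group, so leaving them out widens such differences by construction. The scores of 5 lists lay higher in every WT library than in any control, those of fat, red cells, neutrophils and mast cells (3 genes tested), myelin and squamous epithelium. Except for myelin these gaps were narrow, from ET replicate 2 to the lowest WT library. They ran from 0.79 to 0.86 for squamous epithelium, 0.64 to 0.72 for neutrophils and mast cells, 0.36 to 0.47 for fat and 0.13 to 0.24 for red cells. The scores of 2 lists lay lower, those of the streak and node and, by a narrow gap, of sympathetic cells, whose median changed sign as given above. Of the 46 lists, the other 39 overlapped.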

How the data were processed

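RNA of whole teratomas was poly(A)-selected and sequenced as paired-end libraries made with the CORALL RNA-seq V2 kit. Per the labels and the study's methods, reads were trimmed with fastp, aligned with STAR and quantified with Salmon on GRCm39, and the processing notes also name GATK. The study refers to its source data for software versions, which are not used here. The annotation, strand setting and use of molecular identifiers are not given in the sources used here. The deposited values are expected counts per gene, whole numbers in the files, for 38986 genes, and they were rounded to whole numbers and used as deposited. Totals ranged from 16957677 to 17987009 per library, and 9678 genes had no count in any of the 6.

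Groups came from the titles and treatment labels. The study describes stable cell lines for the constructs, and nothing says whether teratomas of a group came from separate transductions. P-values therefore measure only the spread between these samples. Where a group came from a single line, its construct and its line cannot be told apart. Counts of all 12 libraries, with 4 groups of 3, were fitted with edgeR 4.0.16 (R 4.3.3, filterByExpr, TMM, robust quasi-likelihood test), which kept 18405 genes, and p-values were adjusted by Benjamini-Hochberg at 0.05. The 2-fold criterion is the study's, at least 2-fold with an unadjusted p under 0.05. DESeq2 1.42.0, which the authors used, was an alternative. The edgeR and DESeq2 steps were tested on simulated data. A list's score is the mean log2 CPM (prior count 2, CPM being counts per 1000000) of its tested genes minus the ET mean.

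The genes named were Dnmt3l, those past the adjusted threshold, the 10 with the largest difference each way among genes past the 2-fold criterion whose groups were apart and averaged 5 CPM or more in one of them, the first 3 genes of each list (its defining markers) with up to 3 past the criterion each way, and up to 2 each way for a family. The comparison, the 46 lists (902 genes, 758 tested in any list) and the rule were chosen with earlier results of these data known, and exceptions are marked where they occur. Of the symbols tested, 17803 (96.7%) matched RefSeq on GRCm38.p6, which gave chromosomes, gene types and promoters. No coordinates are given, since the files use another build. Sequences of the proteins were not used here. Some genes that the rule names are not reported here.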

Additional observations from a re-analysis of the deposited data

How the results depend on the processing

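In place of 9 genes, the adjusted threshold was passed by 1871 with DESeq2, by 0 in edgeR with ET and WT alone (3457 at an unadjusted p under 0.05, lowest adjusted p 0.256), by 34 with no filter on low counts, by 926 with the replicate number as a block, by 6977 without both ET replicate 2 and WT replicate 1, and by 0 to 5784 when 1 of the 12 libraries was left out. The highest of these was without ET replicate 2 and the next, 1309, without WT replicate 1. It was 0 without ET replicate 1 (3440 at an unadjusted p under 0.05), WT replicate 2 (3248), WT replicate 3 (2564), K238R replicates 1 and 2 or K412R replicate 1, and 1 without ET replicate 3, K238R replicate 3 or K412R replicates 2 and 3. The cause was not tested. Other size factors, or leaving out Gm26917 and the mitochondrial genes, left it at 9.

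The 1108 genes of the 2-fold criterion became 3160 without both of those libraries and 518 to 2515 without 1 library (518 without ET replicate 3, 699 without WT replicate 3, 1782 without WT replicate 1, 2515 without ET replicate 2). The share of them higher in WT was 54.2%, and 68.9% without ET replicate 2, 64.9% without both and 44.6% without ET replicate 3. The log2 fold change of Dnmt3l was 5.78 with ET and WT alone, where its adjusted p in edgeR was 0.256, and 5.30 to 7.08 without 1 library, with adjusted p up to 0.112. Chromosomes with a median of at least 0.1 in size numbered 4, and 2 to 5 without 1 library. Of 44 list medians, 30 kept their sign under every alternative. Deviations of same-numbered libraries of ET and WT correlated at -0.048, 0.21 and -0.263, within the range of other pairs (-0.331 to 0.407). With 3 libraries a group these values cannot decide whether replicate numbers pair the libraries, and the fit with the number as a block passed 926 genes. The CpG comparison was void and its alternatives gave no value. At these depths, levels under 1 CPM rest on few counts.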
